A study of Mus musculus with 6 samples.

Results

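The genes described here are 43 genes of protein folding, stress sensing and protein degradation in the endoplasmic reticulum (ER), taken from liver RNA-seq of refed and fasted mice. They were chosen as a fixed list of gene symbols, and all 43 were found among the 10961 genes of the deposited expression table, each through the transcript that had the highest mean level over the 6 libraries. They comprise 27 folding genes, 5 stress sensors and their transcription factors, and 11 degradation genes. Messenger RNA was sequenced from frozen liver of 8-week-old males of the inbred strain C57BL/6J. Refed mice (libraries 5, 7 and 8) had been without food for 12 h from 10 am and then ate a diet with 69% sucrose and 10% fat for 12 h from 10 pm. Fasted mice (libraries 1, 3 and 4) had been without food for 12 h from 10 pm. Every animal was killed at 10 am, and the question is how transcript levels stood after a night of sucrose feeding, against a night of fasting. The refed mice had also gone through a daytime fast that the fasted mice had not, and the diet differed from ordinary food in sugar as well as in being eaten, which the 2 groups cannot separate.

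Secreted and membrane proteins enter the ER unfolded, are bound by chaperones and lectins, and receive disulfide bonds and prolyl isomerisation before they move on to the Golgi. Hepatocytes secrete most plasma proteins, and therefore carry a large ER. When unfolded proteins accumulate, the sensors IRE1 (gene Ern1), ATF6 and PERK (gene Eif2ak3) start the unfolded protein response: IRE1 splices the Xbp1 messenger RNA, ATF6 is cut to release a transcription factor, and PERK slows translation. XBP1 and ATF6 bind ER stress response elements in the promoters of chaperone genes. Proteins that fail to fold are recognised by lectins, drawn back through a membrane complex built around the ligase HRD1 (gene Syvn1), and destroyed by the proteasome, a route called ER-associated degradation.

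The promoters were examined for these elements, because they are the known meeting point of the sensors and the folding genes. The ER stress response element (ERSE) was searched as CCAAT and CCACG separated by 9 bases, on both strands of RefSeq promoter windows (build GRCm38.p6) that run from 250 bases before to 50 after the transcription start. Of the 43 genes, 37 had such a window. Those without one were Hyou1, Manf, Atf6, Erp29, Derl1 and Erlec1. The full element was found in 10 of the 37 genes (27.0%), against 37 of 27025 genes in all promoter windows (0.137%), the same 10 included. A shorter form, ERSE-II, was searched as ATTGG and CCACG separated by 1 base and was found in Dnajb11 and Herpud1, 2 of 37 genes (5.41%), against 12 of 27025 (0.0444%). The list was drawn from genes of this response, several of them its textbook targets, so these shares are a description and not an independent test. The elements are given here in their own direction, 5′ to 3′, with the fixed letters in capitals.
Calr ERSE: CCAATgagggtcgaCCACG
Canx ERSE: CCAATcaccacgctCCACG
Creld2 ERSE: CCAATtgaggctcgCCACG
Derl3 ERSE: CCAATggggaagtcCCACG
Dnajc3 ERSE: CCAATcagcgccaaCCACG
Ero1lb ERSE: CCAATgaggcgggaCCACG
Hsp90b1 ERSE nearer the start: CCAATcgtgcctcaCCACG
Hsp90b1 ERSE farther from the start: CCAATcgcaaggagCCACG
Hspa5 ERSE: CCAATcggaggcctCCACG
Pdia6 ERSE: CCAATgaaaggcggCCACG
Syvn1 ERSE: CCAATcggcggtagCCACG
Dnajb11 ERSE-II: ATTGGcCCACG
Herpud1 ERSE-II: ATTGGgCCACG

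The 9 bases between the fixed letters differed in every one of these elements. In the 250 bases before the start of Hspa5 (chr2:34771840-34772089, plus strand), Derl3 (chr10:75893148-75893397, plus strand) and Herpud1 (chr8:94386179-94386428, plus strand), all GRCm38.p6, the elements lie as follows, with their fixed letters in capitals. These 3 are shown because Hspa5 is the central ER chaperone, Derl3 had the largest rise among the 43 genes, and Herpud1 was the 1 gene that fell.
Hspa5 upstream: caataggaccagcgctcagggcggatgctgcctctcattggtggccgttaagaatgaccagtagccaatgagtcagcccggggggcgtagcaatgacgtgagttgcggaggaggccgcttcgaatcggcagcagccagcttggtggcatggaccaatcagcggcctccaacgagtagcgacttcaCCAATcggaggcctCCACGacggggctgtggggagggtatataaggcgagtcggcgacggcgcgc
Derl3 upstream: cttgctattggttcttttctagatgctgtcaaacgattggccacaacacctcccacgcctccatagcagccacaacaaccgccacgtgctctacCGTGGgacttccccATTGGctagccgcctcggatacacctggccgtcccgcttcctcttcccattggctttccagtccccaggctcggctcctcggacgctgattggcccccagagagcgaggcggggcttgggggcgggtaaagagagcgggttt
Herpud1 upstream: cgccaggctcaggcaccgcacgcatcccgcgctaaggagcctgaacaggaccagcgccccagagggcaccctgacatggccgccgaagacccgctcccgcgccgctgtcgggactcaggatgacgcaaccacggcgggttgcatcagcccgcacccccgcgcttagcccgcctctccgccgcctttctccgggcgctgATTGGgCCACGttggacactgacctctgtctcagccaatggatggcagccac

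The first base of the element lay 65 bases before the start of Hspa5 and 52 before that of Herpud1. In Derl3 the element runs against the gene, so that its letters appear as CGTGG followed by ATTGG, and it begins 156 bases before the start. CCACG alone, the shorter site within ERSE and ERSE-II, stood in the windows of 30 of 37 genes (81.1%), against 35.5% of all genes. TGACGTGG, an XBP1 site known as the unfolded protein response element, stood in Txndc5 and Txndc11 (5.41%), against 0.714% of all genes. TGATGNAAT, which ATF4 binds downstream of PERK, stood in 0 of the 37 windows, against 1.08% of all genes. Only this exact spelling was searched, so other spellings of the ATF4 site were not counted. With so rare a spelling, 0 of 37 says little about these genes. A match describes letters in a window and not a bound site.

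In refed liver, levels of folding genes were mostly higher, those of the sensors were mixed, and degradation genes were split. Expression was given as RPKM, reads per kilobase of transcript scaled to library size, and was compared on log2(RPKM + 1) with limma, a linear model fitted across all genes. A gene was called at a Benjamini-Hochberg adjusted p under 0.05 over 10904 tested genes, a set that held all 43. Of the 43 genes, 28 were called higher in refed liver, against 26.4% of all genes tested, and 1 was called lower, against 15.8% of all genes. All 3 refed libraries lay above all 3 fasted libraries for 29 of the 43, against 34.7% of all genes, and below them for 4, against 20.7% of all genes. Their median log2 fold change was 0.64, against 0.10 over all genes tested. When the libraries were centred on their medians, calls over all genes were 2186 higher and 2267 lower, against 2878 and 1722 without centring, and among the 43 genes 27 were higher and 4 lower. In bulk tissue, fewer cells of a type and less RNA per cell cannot be told apart. Nothing in the labels ties each library to an animal of its own, so the p-values reflect only how far these libraries vary, some of which may be technical.

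Folding genes held the bulk of the calls, with 21 of 27 higher in refed liver, none lower and a median log2 fold change of 0.91. Of the 5 sensors, 3 were higher and none lower, with a median of 0.64. Degradation genes gave 4 higher and 1 lower of 11, with a median of 0.19. Over all genes tested, 26.4% were higher and 15.8% lower, and the degradation counts were not far from these shares. At an unadjusted limma p under 0.05, none of the folding genes was lower, and 1 sensor (Atf6) and 1 further degradation gene (Os9) were. The share of all genes at that unadjusted threshold was not counted, so nothing is read from these numbers. Summed over its members, RPKM of the folding genes was 5139 ± 871 in refed and 2539 ± 205 in fasted liver (SD, n = 3 each), a ratio of 2.02. The degradation genes summed to 465 ± 74.2 RPKM in refed and 626 ± 94.2 RPKM in fasted liver, a ratio of 0.743. The sums overlapped, at 389 to 537 RPKM in refed and 528 to 716 RPKM in fasted libraries. That direction rested on Herpud1, which averaged 130 RPKM in refed and 374 RPKM in fasted liver. Without it, a split made after its values were seen, the other 10 genes summed to 335 ± 32.9 RPKM in refed and 252 ± 13.1 RPKM in fasted liver, a ratio of 1.33. Leaving out 1 library at a time, 26 to 31 of the 43 genes were higher, 31 of them without refed 7, and 1 was lower each time.

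**Figure D1:**
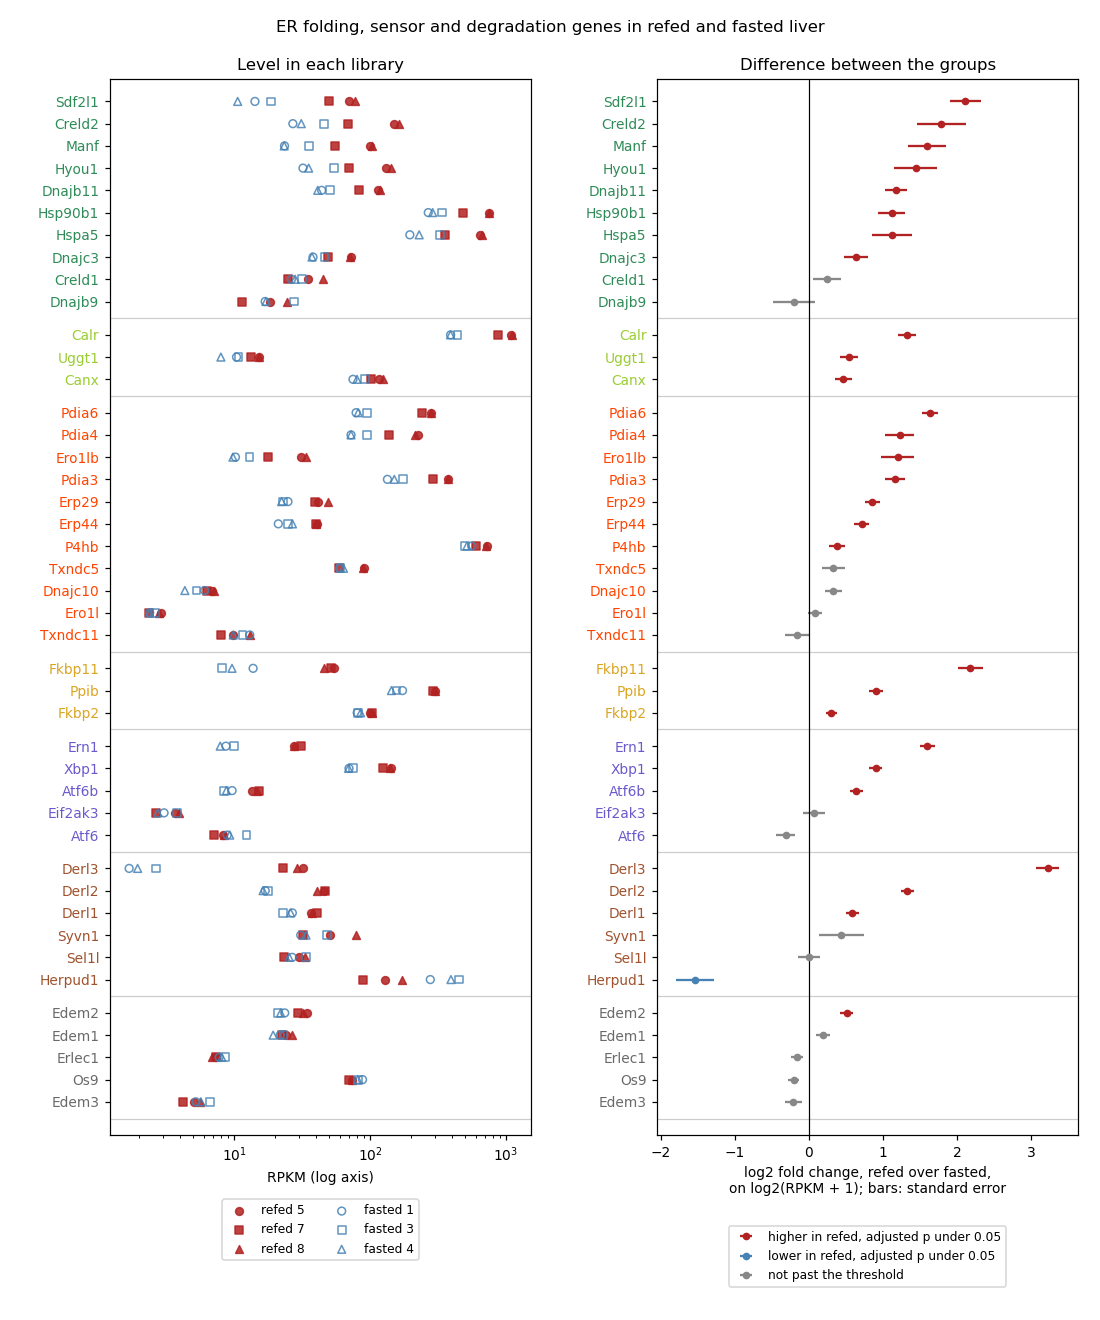
The left panel plots RPKM (log axis) of the 43 genes in each of the 3 refed and 3 fasted libraries, and the right panel the log2 fold change of refed over fasted with its standard error, genes ordered by role. Most folding genes lie to the right of 0, Derl3 lies farthest right at 3.22 and Herpud1 farthest left at -1.54.

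**Figure D2:**
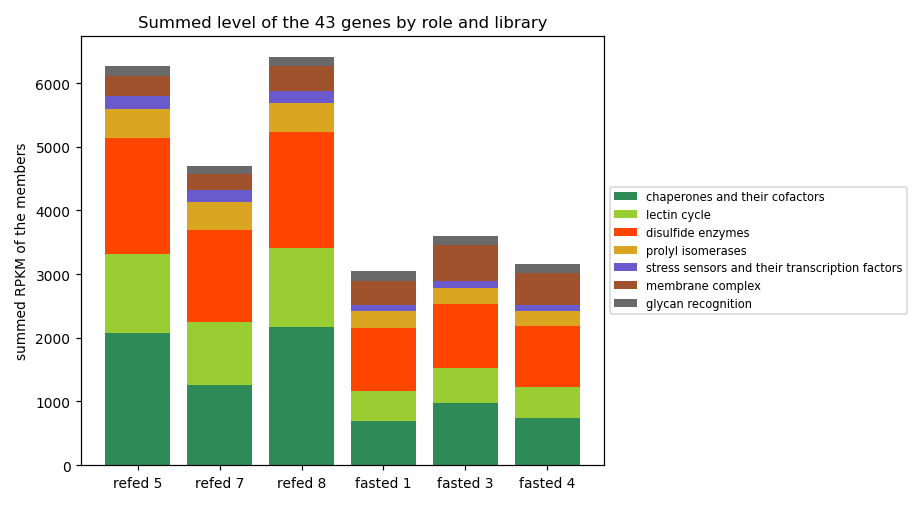
Bars stack the summed RPKM of the 43 genes by role for each library, refed at the left and fasted at the right. Sums ran from 4703 to 6417 RPKM in refed and from 3045 to 3601 RPKM in fasted libraries, and refed 7 had the lowest refed sum.

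The libraries were not alike within their groups. Refed and fasted libraries lay apart on the leading principal component of the 1000 genes with the largest variance (81.8% of it). On the next component (8.92%), fasted 1 lay at 16.2, fasted 3 at -7.86 and fasted 4 at -8.96. Hepatocyte markers summed to between 45950 and 48142 RPKM in refed and between 45008 and 54338 RPKM in fasted libraries, with albumin (Alb) the highest of them, and Tat and Cps1 were the 2 of 7 called lower. Of 9 markers of plasma cells and B cells, which also carry a large ER, none had a row in the table. Of 11 pancreatic acinar markers 2 had one, and these summed to 6.48 to 9.76 RPKM in refed and 4.93 to 6.61 RPKM in fasted libraries. Of 5 measured cholangiocyte markers 3 were called higher, Krt19, Krt7 and Sox9, with a list sum of 21.3 to 29.6 RPKM in refed and 17.9 to 27.0 RPKM in fasted libraries. Of 8 endothelial markers Oit3 was called higher, of 9 stellate markers Acta2 and Des, and of 9 Kupffer cell markers none, all 9 of which overlapped between groups. The endothelial sum was 52.5 to 58.8 RPKM in refed and 45.9 to 52.2 RPKM in fasted libraries, and the stellate sum 63.4 to 80.1 RPKM in refed and 40.1 to 78.7 RPKM in fasted libraries. The Kupffer cell sum was 71.0 to 76.5 RPKM in refed libraries, and among fasted libraries it was 121 RPKM in fasted 1 and 42.9 RPKM in fasted 3. Of the neutrophil and erythroid lists, 2 genes each were measured and none was called. Over all genes tested, 26.4% were called higher and 15.8% lower, and these lists are too short to set against those shares. The part of these cell types in the results was not tested.

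Of 10 chaperones and their cofactors, 8 were higher and none lower, against 26.4% and 15.8% of all genes tested. Their median log2 fold change was 1.15. Hspa5, the ER Hsp70 also called BiP, had 641, 355 and 668 RPKM in refed 5, 7 and 8, against 197, 326 and 230 RPKM in fasted 1, 3 and 4. Its mean was 554 ± 174 RPKM in refed and 251 ± 67.2 RPKM in fasted liver, and the groups did not overlap, although refed 7 lay just above fasted 3. The log2 fold change was 1.12 ± 0.27 (SE), with a limma adjusted p of 0.012. Hsp90b1, the ER Hsp90, had 750, 484 and 754 RPKM in refed and 268, 341 and 289 RPKM in fasted libraries (log2 fold change 1.12 ± 0.18, adjusted p = 0.0023). Hspa5 and Hsp90b1 lie outside the 5 chaperones with the largest changes and are given in full because of their central place.

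Sdf2l1, which acts with DNAJB11 to hold unfolded proteins soluble, changed most among the chaperone genes. It had 69.8, 50.4 and 77.2 RPKM in refed 5, 7 and 8 and 14.3, 18.7 and 10.6 RPKM in fasted 1, 3 and 4. Refed liver had 4.52 times the fasted mean (log2 fold change 2.11 ± 0.21, limma adjusted p = 0.00024). Creld2, an ER protein with EGF-like repeats that is induced by ER stress, had 151, 69.0 and 164 RPKM in refed and 27.1, 45.8 and 31.3 RPKM in fasted libraries. For Creld2 the refed mean was 3.69 times the fasted mean (log2 fold change 1.79 ± 0.33, adjusted p = 0.0037), with a refed coefficient of variation of 40.3%. Manf, a small ER protein that is also secreted and binds HSPA5, had 99.5, 55.7 and 104 RPKM in refed and 23.5, 35.6 and 23.4 RPKM in fasted libraries (log2 fold change 1.59 ± 0.26, adjusted p = 0.0021). For Manf the authors' deposited table lists a log2 fold change of 1.01.

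Hyou1, a nucleotide exchange factor of HSPA5, had 130, 69.7 and 143 RPKM in refed and 32.2, 54.1 and 35.4 RPKM in fasted libraries (log2 fold change 1.44 ± 0.29, limma adjusted p = 0.0054). Dnajb11, an ER J-protein that passes unfolded clients to HSPA5, had 114, 82.4 and 118 RPKM in refed and 44.1, 51.1 and 41.3 RPKM in fasted libraries (1.17 ± 0.15, adjusted p = 0.00072). Neither gene overlapped between the groups. The eighth called chaperone gene was Dnajc3, whose product P58IPK inhibits PERK and also acts as a J-protein inside the ER, with a log2 fold change of 0.64 ± 0.16 and an adjusted p of 0.015. Its adjusted p was 0.056 without refed 5 and 0.051 without refed 8.

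A pair of chaperone cofactors did not pass. Dnajb9, a J-protein that binds IRE1 and HSPA5 and is a well-known XBP1 target, had 18.4, 11.4 and 24.7 RPKM in refed and 17.0, 27.6 and 17.2 RPKM in fasted libraries. Its groups overlapped, with a log2 fold change of -0.20 ± 0.28 and a limma adjusted p of 0.59. The fold change of Dnajb9 was 0.08 without refed 7 and 0.02 without fasted 3. Creld1, the relative of Creld2, gave 0.24 ± 0.19 (adjusted p = 0.34) over all libraries and 0.46 (adjusted p = 0.035) without refed 7.

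The 3 genes of the lectin cycle, in which sugar chains hold new glycoproteins on chaperones, were all higher, against 26.4% of all genes tested. Calr, the soluble calcium-binding lectin calreticulin, had 1095, 878 and 1104 RPKM in refed and 392, 440 and 392 RPKM in fasted libraries, the highest mean RPKM among the 43 genes in refed liver. It was 2.51 times as high in refed liver, with a log2 fold change of 1.32 ± 0.12 and a limma adjusted p of 0.00014. Canx, its membrane-bound counterpart calnexin, had 117, 101 and 125 RPKM in refed and 75.0, 92.0 and 80.3 RPKM in fasted libraries (0.47 ± 0.11, adjusted p = 0.013). The difference between the changes of this pair was not tested. Uggt1, which puts glucose back on misfolded glycoproteins and so returns them to the cycle, had 15.2, 13.3 and 15.2 RPKM in refed and 10.4, 10.8 and 8.01 RPKM in fasted libraries (0.54 ± 0.12, adjusted p = 0.0084).

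Of 11 genes grouped as disulfide enzymes, with the escort gene Erp29 among them, 7 were higher and none lower. Their median log2 fold change was 0.71, and over all genes tested 26.4% were higher and 15.8% lower. Pdia6, a protein disulfide isomerase that also binds IRE1, had 281, 242 and 279 RPKM in refed and 79.1, 95.0 and 81.9 RPKM in fasted libraries. The refed mean was 3.13 times the fasted mean (log2 fold change 1.64 ± 0.10, limma adjusted p = 3.3e-05), and the libraries of each group lay close together. Pdia4 had 224, 137 and 214 RPKM in refed and 72.6, 95.1 and 72.6 RPKM in fasted libraries (1.23 ± 0.20, adjusted p = 0.002). Pdia3, the isomerase that works with calnexin and calreticulin on glycoproteins, had 372, 289 and 376 RPKM in refed and 134, 174 and 151 RPKM in fasted libraries (1.17 ± 0.14, adjusted p = 0.00052).

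Of the oxidases that reload these isomerases, Ero1lb was called higher and Ero1l was not called, and the difference between their changes was not tested. Ero1lb, the ERO1 beta enzyme, had 31.0, 17.6 and 33.6 RPKM in refed and 10.3, 13.0 and 9.83 RPKM in fasted libraries (log2 fold change 1.20 ± 0.23, limma adjusted p = 0.0042). Ero1l, the ERO1 alpha enzyme, had 2.91, 2.39 and 2.80 RPKM in refed and 2.40, 2.64 and 2.40 RPKM in fasted libraries (0.09 ± 0.10, adjusted p = 0.51). Per length, Ero1lb was thus the more abundant of the oxidase transcripts in every library. Erp29, an escort of secreted proteins, had 41.3, 39.8 and 49.3 RPKM in refed and 25.0, 23.0 and 22.4 RPKM in fasted libraries (0.86 ± 0.10, adjusted p = 0.00052). Its exons share 2210 bases with Naa25 on the other strand. Whether counting used strand is not given, so that value is uncertain.

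The last called disulfide genes were Erp44, which retains ERO1 enzymes in the early secretory pathway, and P4hb, the abundant protein disulfide isomerase PDI. Erp44 averaged 40.4 ± 0.452 RPKM in refed and 24.4 ± 2.91 RPKM in fasted liver (log2 fold change 0.71 ± 0.10, limma adjusted p = 0.0011). P4hb averaged 684 ± 70.3 RPKM in refed and 526 ± 30.0 RPKM in fasted liver (0.37 ± 0.11, adjusted p = 0.025). The P4hb call was lost with centring on the median (adjusted p = 0.067) and on leaving out fasted 3 (0.084), fasted 4 (0.058), refed 5 (0.095) or refed 8 (0.082). Dnajc10, which reduces wrong disulfides ahead of degradation, had no overlap between groups and just missed the threshold (0.33 ± 0.12, adjusted p = 0.051). Without fasted 1 it gave 0.43 with an adjusted p of 0.02. Txndc5, another isomerase of the family, gave 0.33 ± 0.16 (adjusted p = 0.13), and 0.53 (adjusted p = 0.0042) without refed 7. Txndc11, a thioredoxin-domain membrane protein of the ER, gave -0.16 ± 0.17 (adjusted p = 0.49).

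The prolyl isomerases, which turn the peptide bond before proline, were all 3 higher, against 26.4% of all genes tested. Fkbp11 had 54.3, 51.8 and 45.7 RPKM in refed and 13.8, 8.20 and 9.67 RPKM in fasted libraries. Its refed mean was 4.79 times the fasted mean (log2 fold change 2.18 ± 0.17, limma adjusted p = 7.2e-05), the largest change among the 27 folding genes. Ppib, the ER cyclophilin B, had 303, 289 and 300 RPKM in refed and 174, 157 and 144 RPKM in fasted libraries (0.91 ± 0.09, adjusted p = 0.00026). Ppib exons share 825 bases with Snx22 on the other strand. Fkbp2 had 99.3, 104 and 103 RPKM in refed and 80.6, 81.9 and 85.3 RPKM in fasted libraries (0.30 ± 0.07, adjusted p = 0.013). The refed libraries were close together for all of them, with coefficients of variation of 2.54% for Fkbp2, 2.56% for Ppib and 8.72% for Fkbp11.

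Among the sensors, transcripts of Ern1 and Xbp1 were higher in refed liver, and those of Eif2ak3 were not detectably different. Ern1 had 27.8, 31.0 and 27.7 RPKM in refed and 8.72, 10.0 and 7.92 RPKM in fasted libraries. Its mean was 28.8 ± 1.89 RPKM in refed and 8.88 ± 1.05 RPKM in fasted liver, 3.24 times as high, with a log2 fold change of 1.60 ± 0.10 and a limma adjusted p of 3.2e-05. Xbp1, the transcript that IRE1 splices, had 143, 124 and 139 RPKM in refed and 70.1, 75.4 and 69.6 RPKM in fasted libraries (0.91 ± 0.09, adjusted p = 0.0002). Spliced and unspliced Xbp1 cannot be told apart in a value per transcript, so these levels say nothing of IRE1 activity.

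The ATF6 pair gave fold changes of opposite sign, although the difference between them was not tested. Atf6b, the relative of ATF6 with the weaker activation domain, had 13.5, 15.4 and 14.8 RPKM in refed and 9.69, 8.47 and 8.79 RPKM in fasted libraries (log2 fold change 0.64 ± 0.09, limma adjusted p = 0.0011). Atf6 had 8.33, 7.17 and 8.38 RPKM in refed and 8.92, 12.3 and 9.31 RPKM in fasted libraries. All refed libraries lay below all fasted ones, but Atf6 missed the threshold (-0.31 ± 0.13, adjusted p = 0.085), and it passed with centring (adjusted p = 0.045) and with quantile normalization (0.042). The authors' deposited table lists Atf6 with a log2 fold change of -0.47. Eif2ak3 had 3.70, 2.65 and 3.95 RPKM in refed and 3.06, 3.83 and 2.75 RPKM in fasted libraries, overlapping, with a log2 fold change of 0.07 ± 0.15 (adjusted p = 0.73) that was -0.02 with centring.

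**Figure D3:**
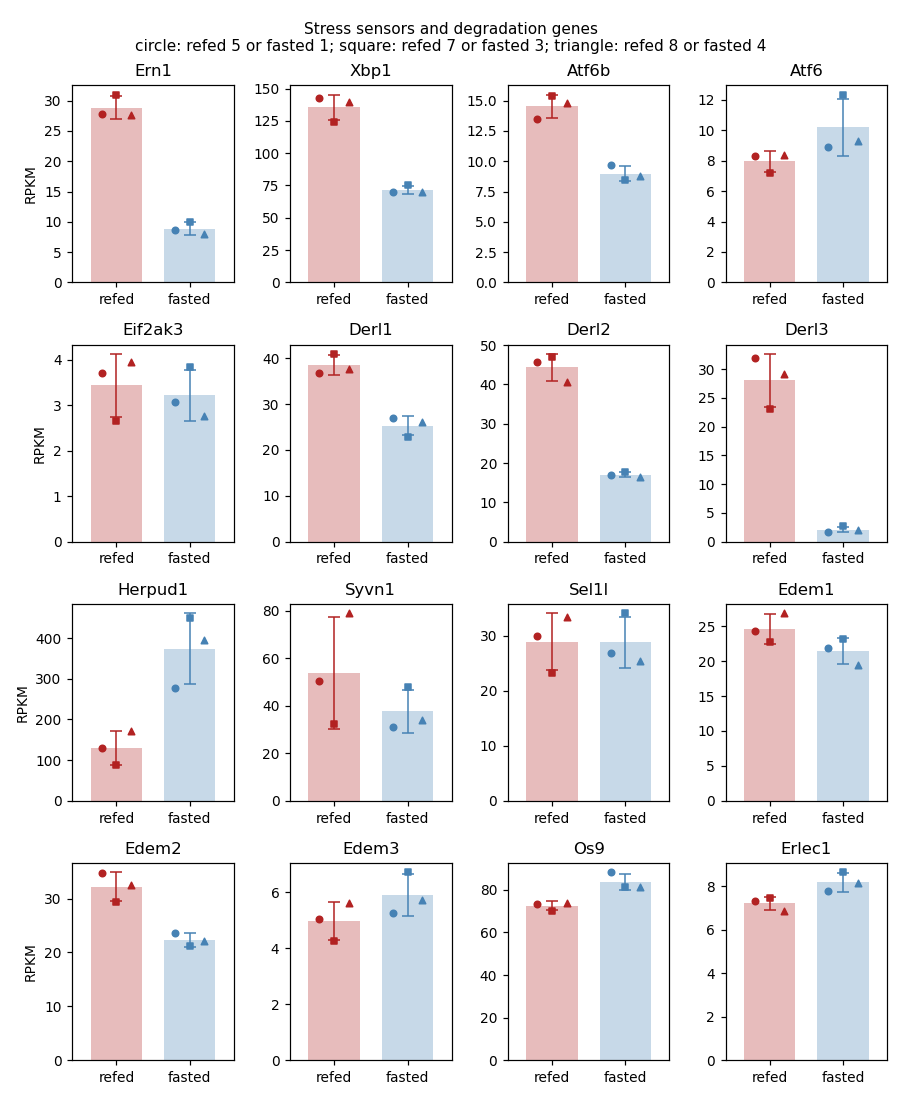
Bars and error bars give mean RPKM and SD (n = 3) of the 5 sensors and 11 degradation genes, refed at the left and fasted at the right of each panel, with a point for each library and an axis that starts at 0. Refed points lie above fasted points for Ern1, Xbp1, Atf6b, the Derl genes and Edem2, and below them for Herpud1, Atf6, Os9 and Erlec1.

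Degradation genes of the membrane complex held both the largest rise and the one fall of the list. The derlins, membrane proteins that form the channel with HRD1, were all 3 higher, against 26.4% of all genes tested. Derl3 had 31.9, 23.0 and 29.2 RPKM in refed and 1.69, 2.67 and 1.96 RPKM in fasted libraries. Its mean was 13.3 times as high in refed liver, with a log2 fold change of 3.22 ± 0.15 and a limma adjusted p of 9.7e-06. The authors' deposited table lists 2456, 1975 and 2077 Derl3 reads in refed and 134, 238 and 142 reads in fasted libraries, with a log2 fold change of 3.46. Per length, Derl3 was the least abundant derlin in both groups, and its mean was 28.0 RPKM in refed and 2.11 RPKM in fasted liver. Derl2 had 45.7, 46.9 and 40.5 RPKM in refed and 17.0, 17.7 and 16.4 RPKM in fasted libraries (1.33 ± 0.09, adjusted p = 3.5e-05). Derl2 shares 231 exon bases with Mis12 on the other strand. Derl1 had 36.7, 40.9 and 37.8 RPKM in refed and 26.9, 22.9 and 26.1 RPKM in fasted libraries (0.59 ± 0.09, adjusted p = 0.0018).

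Herpud1, a membrane protein that helps to assemble the HRD1 complex and is itself short-lived, moved the other way. It had 130, 88.7 and 172 RPKM in refed and 278, 449 and 394 RPKM in fasted libraries. Its mean was 2.87 times as high in fasted liver, with a log2 fold change of -1.54 ± 0.25 and a limma adjusted p of 0.0024. The authors' deposited table lists it with -1.68. Of all 43 genes it was the only one called lower, under the fit used throughout. Across the alternatives tried, its fold change lay between -1.76 and -1.29 with adjusted p of at most 0.011.

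The ligase and its partner did not change detectably. Syvn1, the ligase HRD1, had 50.5, 32.3 and 79.0 RPKM in refed and 31.0, 48.1 and 33.9 RPKM in fasted libraries. Its groups overlapped and its refed coefficient of variation of 43.6% was the largest of the 43 (log2 fold change 0.44 ± 0.30, limma adjusted p = 0.27). Without refed 7 it gave 0.76 and an adjusted p of 0.045. Sel1l, the adaptor that holds HRD1 stable, had 30.0, 23.3 and 33.5 RPKM in refed and 26.8, 34.1 and 25.5 RPKM in fasted libraries (0.00 ± 0.15, adjusted p = 0.99).

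Of the 5 genes of glycan recognition, 1 was called higher and none lower, against 26.4% and 15.8% of all genes tested. Their median log2 fold change was -0.16. Edem2, a mannosidase-like protein that starts the trimming of sugar chains on doomed glycoproteins, had 34.7, 29.5 and 32.4 RPKM in refed and 23.6, 21.2 and 22.0 RPKM in fasted libraries (log2 fold change 0.51 ± 0.09, limma adjusted p = 0.0031). Its relatives did not pass, with 0.19 ± 0.10 for Edem1 (adjusted p = 0.16) and -0.21 ± 0.12 for Edem3 (adjusted p = 0.19). Os9 and Erlec1 are lectins that read the trimmed chains for the HRD1 complex. Os9 had 73.3, 70.2 and 74.0 RPKM in refed and 88.2, 81.5 and 81.5 RPKM in fasted libraries (-0.20 ± 0.08, adjusted p = 0.066), and Erlec1 gave -0.16 ± 0.08 (adjusted p = 0.14). Neither overlapped between groups. With centring, adjusted p was 0.019 for Os9 and 0.042 for Erlec1, and the authors' deposited table lists Os9 with -0.34.

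The spread within refed liver was uneven across roles. The median coefficient of variation over refed libraries was 12.5% for the 43 genes, against 9.17% for all genes tested, and it was above 20% in 16 of 43 (37.2%), against 15.0% of all genes. Among folding genes the median was 29.7% for chaperones, 10.6% for the lectin cycle, 11.9% for disulfide enzymes and 2.56% for prolyl isomerases, and 9 of 10 chaperones were above 20%. The sensors had a median of 7.29%. Degradation genes had 8.57% over all 11, with 17.2% for the membrane complex and 8.19% for glycan recognition. Over fasted libraries it was 12.1% for the 43 genes and 11.0% for all genes. Refed 7 was the lowest refed library for 36 of the 43 genes (83.7%), against 37.4% of all genes. By role, these were all 10 chaperones, all 3 lectin cycle genes, all 11 disulfide enzymes and 1 of 3 prolyl isomerases. The others were 3 of 5 sensors and 8 of 11 degradation genes. Fasted 3 was the highest fasted library for 30 of 43 (69.8%), against 27.0% of all genes. Both held for 27 of 43 (62.8%), against 11.7% of all genes.

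The 2 library differences went together across the list. Refed 7 was 0.437 times the mean of refed 5 and 8 for Creld2, 0.499 for Syvn1, 0.510 for Hyou1, 0.528 for Dnajb9 and 0.542 for Hspa5. By the same ratio it was above 1 for Ern1 (1.12), Derl1 (1.10), Derl2 (1.09), Atf6b (1.09), Erlec1 (1.05), Fkbp2 and Fkbp11 (both 1.03), and it was the highest refed library for all of these but Fkbp11. Fasted 3 was 1.62 times the mean of fasted 1 and 4 for Dnajb9, 1.60 for Hyou1, 1.57 for Creld2 and 1.53 for Hspa5, and 0.698 for Fkbp11. Across the 43 genes the Pearson correlation of these log2 ratios was -0.76, and across 10882 genes it was -0.05. Genes are not independent replicates, and each ratio compares 1 library with a pair. In fasted 3 the Kupffer cell, stellate cell, cholangiocyte and endothelial marker sums were each the lowest of the fasted group. In refed 7 the stellate and endothelial sums were the highest of the refed group. The Kupffer cell sum of refed 7 was the lowest of that group, at 71.0 RPKM. Its cholangiocyte sum, 25.7 RPKM, lay between those of refed 5 and 8. The part of these cells in this pattern was not tested.

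**Figure D4:**
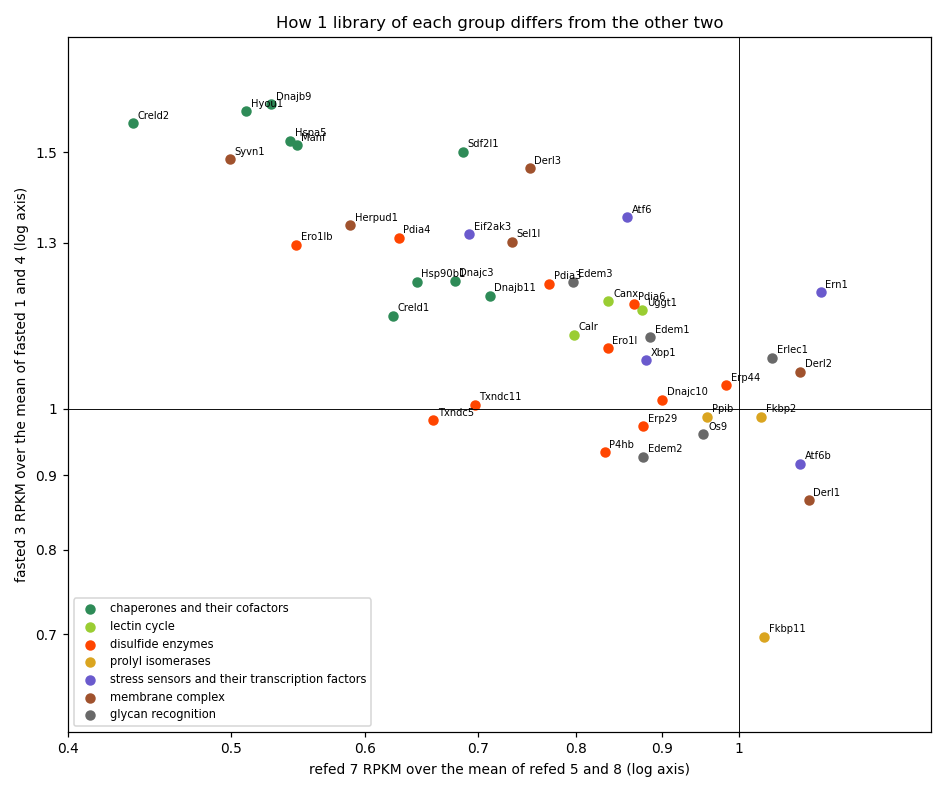
Each point is 1 of the 43 genes, coloured by role, with refed 7 over the mean of refed 5 and 8 on the x axis and fasted 3 over the mean of fasted 1 and 4 on the y axis, both RPKM ratios on log axes. Chaperones lie at the upper left, between 0.437 and 0.712 on the x axis, and the prolyl isomerases near or below 1 on the y axis.

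Genes with and without the promoter element were set beside these values. Of the 10 genes with a full ERSE, 9 were called higher, none lower and Syvn1 not, with a median log2 fold change of 1.16. Among the 27 with a window but no ERSE, 15 were higher, 1 lower and 11 not called, with a median of 0.37. Genes without a window, Hyou1 and Manf among them, are in neither set. The median ratio of refed 7 to the other refed libraries was 0.661 with the element and 0.836 without, and that of fasted 3 to the other fasted libraries 1.26 and 1.10. Chaperones with a window but no ERSE had low refed 7 ratios too. These were 0.528 for Dnajb9, 0.624 for Creld1, 0.686 for Sdf2l1 and 0.712 for Dnajb11. Element and role were not separated. The 2 genes with ERSE-II moved apart, Dnajb11 up and Herpud1 down. Outside the list, 27 genes hold a full ERSE in their window, and 6 of them were tested. Of these, 4 were called higher, Acacb, Alg12, Hnrnpa3 and Pan2, and none lower. Over all genes tested, 26.4% were called higher and 15.8% lower, and 6 genes are too few to set against those shares. These counts describe the windows, and several of the listed genes are textbook targets of the response.

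Other ER genes were taken from 3 lists of the same pathways, to be read against the 26.4% of all genes called higher and the 15.8% called lower. Of 32 tested folding genes outside the 43, 12 were higher and none lower in refed liver, with a median log2 fold change of 0.20. Serp1, which stabilises new membrane proteins at the translocon, averaged 134 ± 14.1 RPKM in refed and 62.8 ± 4.47 RPKM in fasted liver (log2 fold change 1.08 ± 0.10, limma adjusted p = 0.00019). Lman1, a cargo receptor for glycoproteins, gave 0.72 ± 0.09 (adjusted p = 0.00083), and Cnpy4 gave 0.66 ± 0.16 (adjusted p = 0.011). Of 30 further degradation genes, 5 were higher and 5 lower, with a median of -0.01, so the higher calls were fewer than the share over all genes and the lower calls close to it. March6, an ER membrane ligase, averaged 12.6 ± 0.427 RPKM in refed and 28.7 ± 3.67 RPKM in fasted liver (-1.12 ± 0.10, adjusted p = 0.00016). Higher in refed liver were Selk (0.96 ± 0.10, adjusted p = 0.00027) and Ubxn4 (0.85 ± 0.12, adjusted p = 0.0012), a pair that bind the extraction ATPase p97.

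Among 25 tested regulators of the unfolded protein response, 9 were higher and 3 lower in refed liver, with a median log2 fold change of 0.23. Creb3l3, a liver-enriched transcription factor that is cut in the Golgi as ATF6 is, averaged 73.1 ± 21.0 RPKM in refed and 211 ± 13.9 RPKM in fasted liver (-1.56 ± 0.20, limma adjusted p = 0.00069). Trib3, a pseudokinase induced through ATF4, averaged 2.77 ± 0.783 RPKM in refed and 9.01 ± 1.73 RPKM in fasted liver (-1.42 ± 0.18, adjusted p = 0.00067).

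In the authors' deposited table of called genes, 29 of the 43 were listed, 26 with a log2 fold change above 0 and 3 below 0. Of these, 27 were called with the same sign by limma. P4hb and Fkbp2 were called by limma and not listed by the authors, and Atf6 and Os9 were listed by the authors and not called by limma. Coordinates in the authors' deposited table, build mm9 by the submitters' notes, are chromosome 2, 34627490 to 34632051 for Hspa5, chromosome 16, 17130231 to 17132476 for Sdf2l1 and chromosome 15, 98554804 to 98558629 for Fkbp11. The authors' deposited table puts Ern1 at chromosome 11, 106255964 to 106349166, Derl3 at chromosome 10, 75356143 to 75358686, and Herpud1 at chromosome 8, 96910338 to 96919277. In the GENCODE annotation, exons of Manf share 146 bases with Dcaf1, those of Syvn1 91 with Mrpl49 and those of Txndc5 224 with Bmp6. Exons of Eif2ak3 share 485 bases with Gm43292, those of Hsp90b1 415 with 1810014B01Rik and those of Txndc5 311 with Gm31834. All these lie on the other strand, so the values are uncertain as for Erp29, although over fewer bases. Of these other genes, Mrpl49 averaged 12.9 RPKM over all libraries, Bmp6 0.997 RPKM and 1810014B01Rik 0.723 RPKM. No level was found under the symbols of the rest. On its own strand, Hsp90b1 shares 84 exon bases with Gm15344 and 133 with Gm25745, which strand use could not separate. In the authors' deposited table, the reads behind a listed gene in a library ran from 134 for Derl3 to 122562 for Calr.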

How the data were processed

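The deposited data are 2 tables made by the authors from 6 liver libraries, prepared from total RNA (TRIzol and RNeasy columns) with a Universal Plus mRNA-Seq kit, per the labels' protocols. FastQC, STAR 2.6.0c, DESeq2 and the build mm9 are named without roles in the submitters' processing notes. The first deposited table gives RPKM for 14659 transcripts, each reaching 1 RPKM in at least 1 library, with the authors' unadjusted p-values, ratios or fold values and −log10 values, which were not used. The second deposited table lists genes the authors called, with raw read counts, log2 fold changes and p-values, per the file headers. Its counts cover called genes alone, so no count test was run and full depth is unknown. Reads in those genes summed to 26237934 to 33219013 per refed library and 28475836 to 30260057 per fasted library. The sources used here do not give strand use in counting.

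Rows were joined to genes by deposited symbol, ignoring case, and the transcript with the highest mean stood for its gene. Genes averaging 0.5 RPKM or more (10904; 57 removed) were compared on log2(RPKM + 1) with limma 3.58.1 (R 4.3.3), trended variances, two-sided, adjusted by Benjamini-Hochberg. The pseudocount of 1 understates changes of low genes. Errors of means are SD and those of log2 fold changes SE. The test was checked on simulated data. The genes, the lists and the tests were chosen with earlier results of these data known. Every sensor was given by library, as were the called genes with the largest absolute change in each other role (up to 5 chaperones, 5 disulfide genes and 3 elsewhere) and every lower gene. Of each other ER list, the 3 called genes with the largest change are named, except 1 that is not reported here. The alternatives were a pseudocount of 0.1, no filter or a mean of 1 RPKM, median centring, quantile normalization, transcripts summed, no variance trend, and leaving out each library.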

Additional observations from a re-analysis of the deposited data

How the results depend on the processing

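Of the 29 called genes among the 43, 27 kept their call and direction under every alternative, and the exceptions were Dnajc3 and P4hb. The genes called lower numbered 4 with median centring and 4 with quantile normalization, against 1 in the fit reported (Atf6, Os9 and Erlec1 were added to Herpud1). Among other ER folding genes, those called lower numbered 2 with centring and 1 with quantile normalization, against 0. Other degradation genes called higher numbered 3 with centring and 3 with quantile normalization, against 5, and 3 to 4 on leaving out 1 library. Those called lower numbered 3 to 4 on leaving out 1 library, against 5. Genes called over the whole table ranged from 3444 to 4203 on leaving out 1 library, against 4600. Fold changes near 0 changed sign. On leaving out 1 library, Dnajb9 ranged from -0.45 to 0.083, Eif2ak3 from -0.017 to 0.20 and Sel1l from -0.11 to 0.15. With centring, Ero1l was -0.0019, Eif2ak3 -0.018 and Sel1l -0.085. With quantile normalization, Eif2ak3 was -0.0265 and Sel1l -0.10. The cause of these shifts was not tested. No paired analysis was possible because the groups share no replicate numbers. Depth is known only for genes the authors called, so no counting intervals are given.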
